A study of Mus musculus with 12 samples.

Results

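The T cell polarizing cytokines examined here are 8 genes chosen by symbol: Il6, Il12a, Il12b, Il23a, Il27, Ebi3, Il10 and Il15. All 8 were found among the 24391 genes of the count table, and 7 of them passed the low-count filter that left 13221 genes for testing, with Il12a under it. Read counts of CD11b dendritic cells (DCs), cells that show antigen to T cells and bear the integrin CD11b, were taken from 12 libraries of wild-type C57BL/6J mice aged 8 to 12 weeks. The mice had been given a replication-deficient adenovirus into the trachea. In 6 libraries the virus was AdCL, an empty vector, and in 6 it was AdTGFb1, which carried the pig gene for an active form of TGF-β1. By its title the study concerned mice with established lung fibrosis, so the comparison asks how cytokine expression of these DCs differed between the vectors. Each vector had 3 libraries in experiment 1 and 3 in experiment 3. Libraries are named by the DC number of their title, in experiment 1 DC 7, 8 and 9 for AdCL with DC 14, 52 and 54 for AdTGFb1, and in experiment 3 DC 943, 944 and 949 for AdCL with DC 954, 955 and 956 for AdTGFb1. All groups, controls included, carried an adenoviral vector, and there was no group without virus. Which cells the virus infected, the time after it, the sorting gate and whether 1 animal gave 1 library were not found in the labels. The p-values therefore set a difference against the spread between these libraries, which may not be the spread between animals.

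A DC that presents antigen also releases cytokines that steer the T cell it contacts. IL-12, IL-23, IL-27 and IL-35 are built from shared chains: Il12b encodes the p40 chain of IL-12 and IL-23, Il12a the p35 chain of IL-12 and IL-35, Il23a the p19 chain of IL-23, Il27 the p28 chain of IL-27, and Ebi3 the partner chain of IL-27 and IL-35. IL-12 favours interferon-γ producing T cells, and IL-23 and IL-6 favour IL-17 producing T cells. IL-10 restrains DCs and T cells, and IL-15, shown to neighbouring cells on its receptor, sustains memory CD8 T cells and NK cells. NF-κB, C/EBP and AP-1 are textbook regulators of the Il6 promoter.

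Totals ran from 10099912 to 15594546 counts per library, and libraries of one vector and experiment correlated at a Pearson r of 0.896 to 0.942 in log2 CPM. By Xist and the Y-linked Ddx3y, AdCL DC 7, 8 and 9 and AdTGFb1 DC 14 were male and the other 8 libraries female, so sex goes with the vector in experiment 1 in all but 1 library. CPM are counts relative to the TMM-scaled library size, and 3 counts, used as a floor, equal 0.181 CPM in the deepest library and 0.31 CPM in the shallowest on that scale. Of the fixed CD11b DC markers, Itgam, which encodes CD11b itself, held 423 ± 83.1 CPM in AdCL and 363 ± 69.6 CPM in AdTGFb1 (SD, n = 6 each), though 68.7% of its exon bases are shared with the annotated gene Gm49368. Itgax, which encodes CD11c, held 921 ± 124 and 1030 ± 132 CPM. By edgeR's quasi-likelihood test it rose by 0.44 on the log2 scale in experiment 1 (SE 0.128, adjusted p = 0.0155). Flt3, of the same markers, fell from 80.6 ± 13.5 to 32.5 ± 5.46 CPM over both experiments (adjusted p = 1.32e-05, same test). Fcgr1, a monocyte and macrophage marker, rose from 33.7 ± 18.3 to 102 ± 31.1 CPM (adjusted p = 4.5e-06). Over the whole list of 13 CD11b DC markers, 7 fell and 1 rose over both experiments (median log2 fold change -0.432), against 10.4% of all tested genes lower and 6.78% higher. Their summed levels were 34100 to 38300 CPM in AdCL and 22700 to 27800 CPM in AdTGFb1 of experiment 1, and 33500 to 44300 against 29300 to 36700 CPM in experiment 3. The summed level of 12 mature DC markers ran from 6630 to 7050 CPM in AdCL and 2270 to 2910 CPM in AdTGFb1 of experiment 1, and from 5530 to 9410 against 2140 to 3970 CPM in experiment 3. Over both experiments 9 of 12 of these markers fell and none rose, against 10.4% of all tested genes lower and 6.78% higher. Within experiment 1, 6 of them fell and 2 rose (14.1% and 10.6% of all tested genes). Within experiment 3, 8 fell and none rose (4.46% and 1.97%). Of 12 monocyte and macrophage markers 10 rose and none fell over both experiments. Their sums were 3920 to 4620 against 8760 to 11500 CPM in experiment 1 and 7350 to 8990 against 14900 to 19000 CPM in experiment 3. Sums of 12 structural cell markers (endothelium, fibroblasts, epithelium) were 259 to 1030 CPM in AdCL and 69.9 to 119 CPM in AdTGFb1 of experiment 1, and 104 to 182 against 141 to 265 CPM in experiment 3, with no marker of these 3 lists at 0 in every library. Sums of 7 alveolar macrophage markers lay in opposite directions, at 61.8 to 150 CPM in AdCL against 1020 to 2140 CPM in AdTGFb1 of experiment 1, where 2 rose and none fell, and 168 to 546 against 72.6 to 95.3 CPM in experiment 3, where 1 fell and none rose. Sums of 6 CD103 DC markers were 367 to 463 against 90.6 to 123 CPM in experiment 1, where 2 fell and 1 rose, and overlapped in experiment 3 (173 to 404 and 207 to 255 CPM). Of all tested genes 14.1% fell and 10.6% rose in experiment 1, and 4.46% fell and 1.97% rose in experiment 3. Neutrophil marker sums were 22.2 to 33.2 against 5.76 to 11.5 CPM in experiment 1 and 28.5 to 55.3 against 3.49 to 7.31 CPM in experiment 3, with Camp at 0 throughout. Sums of T cell, B and plasma cell, NK cell and plasmacytoid DC markers reached at most 103, 10.8, 56 and 130 CPM. Mast cell and basophil marker sums reached 16.1 CPM, and 5 of 6 mast cell and basophil markers (Cpa3, Mcpt8, Mcpt4, Ms4a2 and Fcer1a) had no count. In these bulk libraries fewer cells of a type and less RNA per cell cannot be told apart, and the part of these marker shifts in the results that follow was not tested unless a value is given.

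Il6, Il12b and Ebi3 are the members whose AdTGFb1 libraries all lay under all AdCL libraries, and the 250 bases before their start sites are shown to set their promoters side by side. RefSeq (GRCm38.p6) gave such windows for 4 of the 8 members, Il12a being the other. Capitals mark matches to kappaB (GGGANTTTC), C/EBP (TTGCNNAA) or AP-1 (TGANTCA) letters on either strand, none of which overlap here.
Il6, chr5:30012864-30013113, plus strand: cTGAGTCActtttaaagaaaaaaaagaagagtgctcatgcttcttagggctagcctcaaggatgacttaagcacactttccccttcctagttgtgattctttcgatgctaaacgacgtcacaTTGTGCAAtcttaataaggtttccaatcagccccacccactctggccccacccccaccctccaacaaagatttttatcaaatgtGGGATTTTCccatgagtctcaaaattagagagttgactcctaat
Il12b, chr11:44399813-44400062, plus strand: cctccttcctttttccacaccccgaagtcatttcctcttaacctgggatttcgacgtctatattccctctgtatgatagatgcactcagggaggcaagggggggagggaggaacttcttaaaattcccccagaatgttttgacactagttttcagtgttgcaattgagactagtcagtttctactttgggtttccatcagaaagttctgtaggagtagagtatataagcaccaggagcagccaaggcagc
Ebi3, chr17:55952373-55952622, plus strand: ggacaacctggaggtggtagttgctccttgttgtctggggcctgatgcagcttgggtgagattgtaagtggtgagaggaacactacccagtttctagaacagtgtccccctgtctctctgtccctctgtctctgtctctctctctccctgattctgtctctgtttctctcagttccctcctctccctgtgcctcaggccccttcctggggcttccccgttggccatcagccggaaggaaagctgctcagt
The Il6 window held all 3 of these letter sets, beginning 44 bases (kappaB), 128 bases (C/EBP) and 249 bases (AP-1) before the start site. Among all 32851 windows of the same length, 0.941% held the kappaB letters, 9.56% the C/EBP letters and 6.75% the AP-1 letters. The Il12b and Ebi3 windows held none of them. The short SMAD box (CAGAC), present in 42.2% of all windows, was found in Ebi3 alone of the 3, and the GAS letters (TTCNNNGAA, 7.02%) and the ISRE letters (2.98%) in none. A match is a run of letters and not a bound site. A window without a match may still hold sites for these factors, since only these exact letters were searched. The coordinates are of another build than the counts, which were made on mm9.

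Levels of different members were compared per length, as CPM per kilobase of annotated exons. Il12b was the most abundant by far, at 156 ± 33.8 CPM per kb in AdCL and 66.9 ± 30.9 in AdTGFb1 (SD, n = 6 each). Ebi3 followed with 43.9 ± 9.27 and 19 ± 8.21 CPM per kb, and Il10 with 26.8 ± 17.4 and 6.57 ± 4.34. Il6 held 9.02 ± 3.1 and 2.67 ± 0.577 CPM per kb. The partner chains were much lower: Il23a, which pairs with p40, held 1.73 ± 1.28 and 0.512 ± 0.402, and Il27, which pairs with Ebi3, 0.386 ± 0.719 and 2.37 ± 1.48 CPM per kb. Il15 lay in the same range, at 1.95 ± 1.52 and 2.62 ± 1.35. Il12a was the lowest, at 0.211 ± 0.307 and 0.014 ± 0.0344 CPM per kb.

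**Figure D1:**
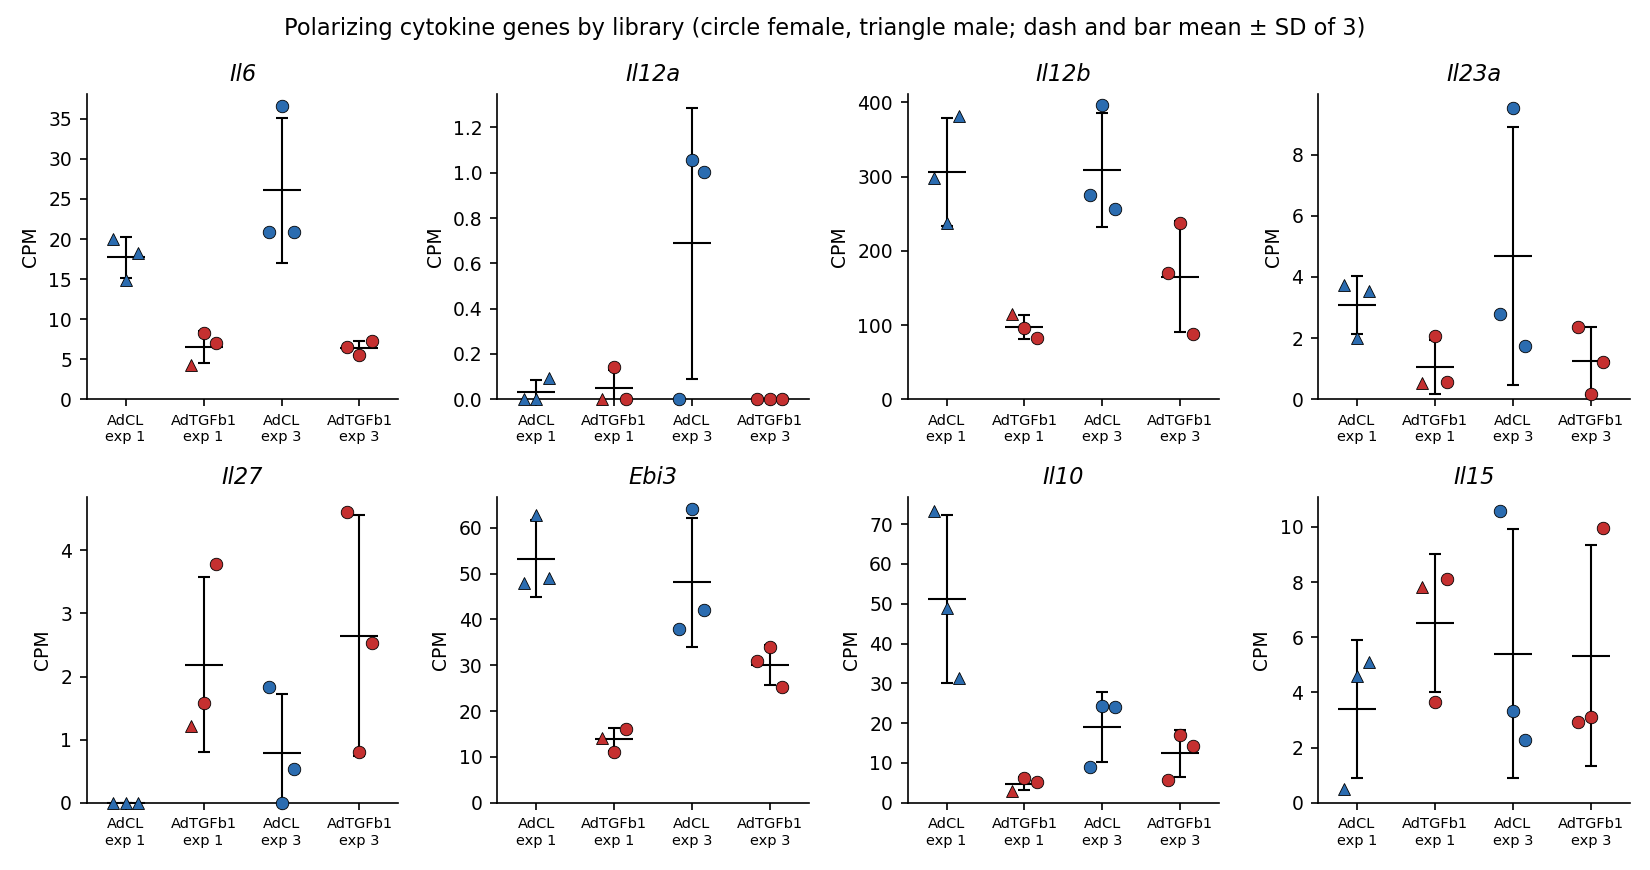
CPM of each of the 8 genes (linear axis, own scale per panel) in every library, by vector and experiment (blue AdCL, red AdTGFb1; circles female, triangles male; dash and bar mean ± SD of 3). Every AdTGFb1 library lies under every AdCL library for Il6, Il12b and Ebi3, while Il10 separates the vectors in experiment 1 and overlaps in experiment 3.

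Over both experiments AdTGFb1 libraries held less Il6, Il12b, Ebi3 and Il10 RNA than AdCL libraries. The difference was 2.42-fold for Il12b, 2.47-fold for Ebi3, 3.31-fold for Il6 and 3.99-fold for Il10. Thus 4 of the 7 tested members fell and none rose, with a median log2 fold change of -1.31, against 10.4% of all 13221 genes falling, 6.78% rising (17.2% in all) and a median of -0.00196. Il23a, Il27 and Il15 did not pass, all by edgeR's quasi-likelihood test with Benjamini-Hochberg adjustment over all genes, the source of every adjusted p given here. The direction "lower" with no overlap between the vectors was shown by 3 members and by 4.46% of all tested genes, and "higher" by no member and 1.86%.

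Il6, the inflammatory cytokine that drives acute-phase responses and IL-17 producing T cells, held 20, 14.9 and 18.2 CPM in AdCL DC 7, 8 and 9 and 20.9, 36.6 and 20.8 CPM in AdCL DC 943, 944 and 949. In AdTGFb1 it held 4.32, 8.31 and 7.01 CPM (DC 14, 52 and 54) and 6.56, 5.51 and 7.25 CPM (DC 954, 955 and 956). The highest AdTGFb1 library therefore stayed under the lowest AdCL library, and AdCL DC 944 stood above the rest. Means were 21.9 ± 7.52 and 6.49 ± 1.4 CPM (SD, n = 6 each), which is -1.73 ± 0.274 as a log2 fold change (SE, adjusted p = 0.000232). The fall was -1.43 ± 0.379 in experiment 1 (adjusted p = 0.00769) and -2.02 ± 0.384 in experiment 3 (adjusted p = 0.00188), and the difference between these effects did not pass (adjusted p = 0.588). In order of level, AdCL of experiment 3 (26.1 CPM) and of experiment 1 (17.7 CPM) did not overlap, while AdTGFb1 of experiment 1 (6.55 CPM) and of experiment 3 (6.44 CPM) did.

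Il12b, the shared p40 chain, held 298.04, 238 and 382 CPM in AdCL DC 7, 8 and 9 and 275, 396 and 256 CPM in AdCL DC 943, 944 and 949. In AdTGFb1 it held 115, 95.4 and 83.1 CPM in DC 14, 52 and 54 and 170, 238 and 88.4 CPM in DC 954, 955 and 956. All AdTGFb1 libraries lay under all AdCL libraries, but AdTGFb1 DC 955 only just under AdCL DC 8. Medians were 286 CPM in AdCL and 105 CPM in AdTGFb1, with SDs of 66.6 and 60.9 CPM (n = 6 each), and the fit gave a log2 fold change of -1.27 ± 0.214 (adjusted p = 0.000397). It fell by 1.65 on the log2 scale in experiment 1 (SE 0.256, adjusted p = 5.54e-05) and by 0.90 in experiment 3 (SE 0.251, adjusted p = 0.0308). The difference between experiments, 0.74 as experiment 3 minus experiment 1, did not pass (adjusted p = 0.237). In 19 alternatives that difference ran from -0.207 to 1.04 and passed in 2 (lowest adjusted p = 0.0221). The call in experiment 3 was lost with DESeq2 (adjusted p = 0.0781), with the libraries of experiment 3 alone (0.0608), and without AdCL DC 944 (log2 fold change -0.67, adjusted p = 0.178), AdTGFb1 DC 954 (-0.92, 0.0671) or AdTGFb1 DC 956 (-0.60, 0.163).

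Il12a and Il23a, whose products pair with p40, were far less abundant than Il12b. Il12a had 1 count in all of AdCL of experiment 1 and 2 in AdTGFb1 of experiment 1. In experiment 3 AdCL DC 944 and DC 949 had 13 and 15 counts (up to 1.06 CPM), and AdCL DC 943 and all 3 AdTGFb1 libraries had none. Against a floor of 3 counts over the group, Il12a was at least 10.8-fold higher in AdCL than in AdTGFb1 of experiment 3, from 2 of 3 libraries, with counting error alone covered and no test. Il23a held 3.72, 1.99 and 3.53 CPM in AdCL and 0.53, 2.08 and 0.55 CPM in AdTGFb1 of experiment 1, and 2.79, 9.53 and 1.74 CPM against 2.37, 0.16 and 1.21 CPM in experiment 3. Its means were 3.88 ± 2.88 and 1.15 ± 0.904 CPM, and 4 of 6 AdTGFb1 libraries lay under every AdCL library. The log2 fold change of -1.72 ± 0.76 was as large as that of Il6, but did not pass (adjusted p = 0.136).

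Ebi3 and Il27, the chains of IL-27, differed between the vectors in opposite directions in these libraries, with the test passed for Ebi3 alone. Ebi3 held 48, 62.9 and 49 CPM in AdCL and 14.2, 11.2 and 16.1 CPM in AdTGFb1 of experiment 1. In experiment 3 it held 38, 64.1 and 42.2 CPM in AdCL and 30.9, 34 and 25.4 CPM in AdTGFb1. Both experiments separated the vectors, with a wide gap in experiment 1 and a narrow one in experiment 3. The means of 50.7 ± 10.7 and 22 ± 9.48 CPM (SD, n = 6 each) gave a log2 fold change of -1.31 ± 0.237 (adjusted p = 0.000789). Ebi3 shares 23.4% of its exon bases with Gm16712 on the opposite strand, a gene with mean levels of 0.462 CPM in AdCL and 0.0847 CPM in AdTGFb1 that was looked up after the values were seen.

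Il27 had 0 counts in AdCL DC 7, 8 and 9 against 16, 22 and 55 counts in AdTGFb1 DC 14, 52 and 54. In experiment 3 it had 19, 0 and 8 counts in AdCL DC 943, 944 and 949 against 66, 10 and 42 counts in AdTGFb1 DC 954, 955 and 956. All AdTGFb1 libraries held the transcript, at 0.799 to 4.61 CPM, but those of experiment 3 overlapped AdCL DC 943 (1.83 CPM). Over both experiments the log2 fold change of 3.63 ± 1.39 did not pass (adjusted p = 0.0819). It passed with DESeq2 (3.85, adjusted p = 0.00609) and without AdCL DC 943 (4.76, adjusted p = 0.0232). The low-count filter asks for about 10 counts in 3 libraries, and in AdCL only DC 943 held as many. Il27 was thus tested only because of its AdTGFb1 libraries, where it was high, so its p-values are descriptive. In experiment 1 Il27 rose (adjusted p = 0.0159), by at least 22.7-fold against a floor of 3 counts over the 3 AdCL libraries. That bound pools libraries, with 55 of 93 counts from AdTGFb1 DC 54. The call was lost without AdTGFb1 DC 54 (adjusted p = 0.0506) and with a term for sex (0.089). It was also lost with a term for structural cell markers, where the value turned to -0.296 (0.903). Its exons share 10.1% of their bases with Apobr on the opposite strand, which held 95.9 ± 21.4 and 111 ± 20 CPM (log2 fold change 0.21 ± 0.134, adjusted p = 0.333) and was also looked up after the values were seen. In AdCL DC 7, 8 and 9 Apobr held 74.5 to 89.4 CPM and Il27 had 0 counts, so no Apobr read was counted to Il27 there. For the libraries with Il27 counts this was not tested, and no source used here states the strand setting.

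Il10, the restraining cytokine, was highest in AdCL of experiment 1, with 73.3, 48.9 and 31.2 CPM in DC 7, 8 and 9. AdTGFb1 DC 14, 52 and 54 held 3.03, 6.16 and 5.23 CPM. In experiment 3 AdCL DC 943, 944 and 949 held 8.94, 24.3 and 24 CPM and AdTGFb1 DC 954, 955 and 956 held 5.79, 17.1 and 14.4 CPM. The vectors were far apart in experiment 1 and overlapped in experiment 3, where AdCL DC 943 lay under 2 AdTGFb1 libraries. Means over both were 35.1 ± 22.7 and 8.61 ± 5.69 CPM (SD, n = 6 each), with 4 of 6 AdTGFb1 libraries under every AdCL library and a log2 fold change of -2.00 ± 0.497 (adjusted p = 0.00884). With a term for sex it was -1.41 and did not pass (adjusted p = 0.113).

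Il15 did not follow Il6, Il12b, Ebi3 and Il10, which fell. It held 0.517, 4.58 and 5.11 CPM in AdCL and 7.8, 3.65 and 8.11 CPM in AdTGFb1 of experiment 1, and 10.6, 3.34 and 2.28 CPM against 2.93, 3.11 and 9.97 CPM in experiment 3. Every pair of groups overlapped. Its means of 4.4 ± 3.45 and 5.93 ± 3.06 CPM gave a log2 fold change of 0.46 ± 0.583 (adjusted p = 0.654).

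**Figure D2:**
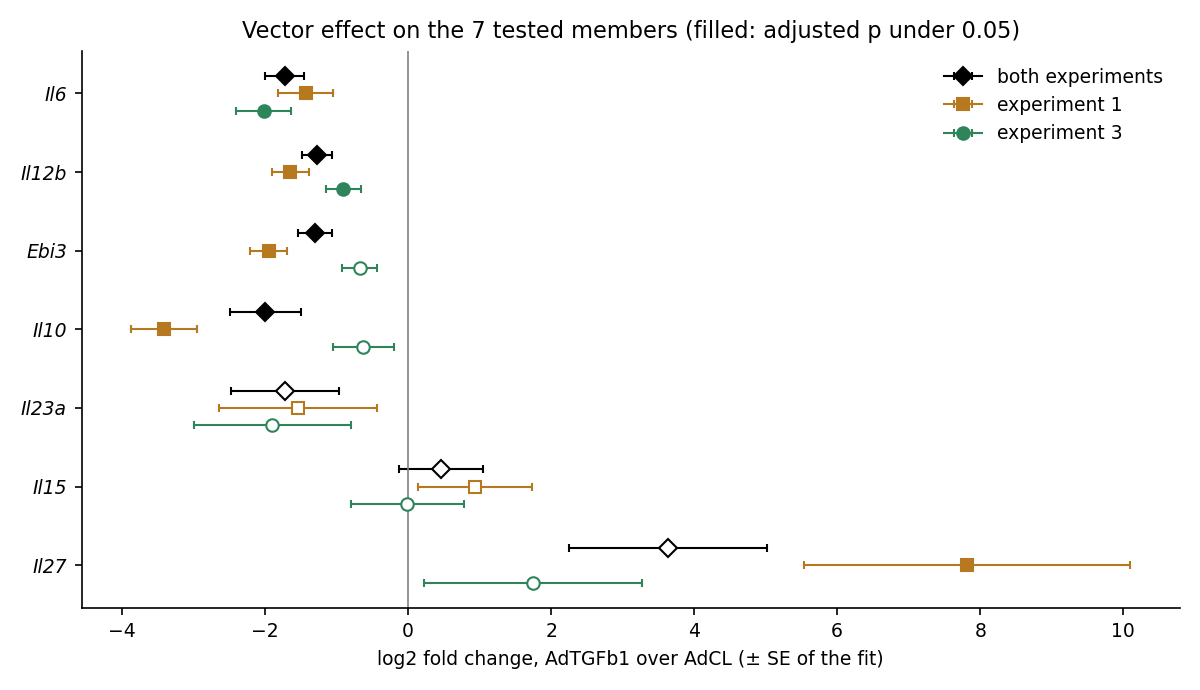
Log2 fold change of AdTGFb1 over AdCL with the SE of the fit (x axis) for the 7 tested genes (y axis), over both experiments (black), within experiment 1 (brown) and within experiment 3 (green); filled symbols passed an adjusted p of 0.05. Il6 and Il12b lie below 0 and passed in all 3, Ebi3 and Il10 passed over both and in experiment 1; the value for Il27 in experiment 1 is against a group at 0 counts and depends on the fit's prior count.

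Within experiment 1, Il6, Il12b, Ebi3 and Il10 fell and Il27 rose, so 4 of 7 tested members were lower and 1 higher, against 14.1% of all tested genes lower and 10.6% higher (24.7% in either direction). The 1 higher, Il27, was tested only because of its AdTGFb1 libraries, so its call is descriptive. Within experiment 3, Il6 and Il12b fell, 2 of 7 against 4.46% of all tested genes, and none rose (1.97% of all, 6.43% in either direction). Ebi3 fell by 1.95 on the log2 scale in experiment 1 (SE 0.256, adjusted p = 7.63e-06), and in experiment 3 its value was -0.68 ± 0.247 (adjusted p = 0.117), with 3 of 3 AdTGFb1 libraries under every AdCL library of that experiment. Il10 fell by 3.41 in experiment 1 (SE 0.461, adjusted p = 1.07e-05), and in experiment 3 its value was -0.62 ± 0.421 (adjusted p = 0.479). The difference between the experiments passed for both, 2 of 7 members with a positive difference against 3.43% of all tested genes (2.59% negative, 6.02% in all): 2.78 ± 0.608 for Il10 (adjusted p = 0.00741) and 1.27 ± 0.351 for Ebi3 (adjusted p = 0.0322), each as experiment 3 minus experiment 1. For Ebi3 this call was lost once sex was a term (1.23, adjusted p = 0.213) and without AdCL DC 8, 943 or 949 or AdTGFb1 DC 52, 954 or 955 (adjusted p = 0.0551 to 0.108).

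The 4 falls in experiment 1 moved with the summed levels of most marker lists. Each list given above but that of B and plasma cells parted the vectors there without overlap, with the monocyte and macrophage and the alveolar macrophage sums higher in AdTGFb1 and the others lower. Their part in the falls was not tested, except through ratios to the mature DC markers, given further on. Of the structural cell markers 9 of 12 fell there and none rose, against 14.1% of all tested genes lower and 10.6% higher. The mean score of those markers ran from 0.744 to 2.42 in AdCL DC 7, 8 and 9. In AdTGFb1 DC 14, 52 and 54 it ran from -1.62 to -0.984, so it parts the vectors without overlap. A fit with both the score and the vector therefore cannot tell their parts in experiment 1 apart. With that score as a term, none of the members passed in experiment 1: Il10 was at -3.18 (adjusted p = 0.116), Il6 at -1.59 (0.482), Ebi3 at -1.11 (0.418), Il12b at -0.87 (0.548) and Il27 at -0.296 (0.903), and 20 genes in all rose and 48 fell. The differences between experiments did not pass with it either, at 2.51 for Il10 (adjusted p = 0.564) and 0.29 for Ebi3 (0.95). In experiment 3, where the score overlapped between the vectors, Il6 at -1.99 (adjusted p = 0.00313) and Il12b at -1.07 (0.0129) passed with the score as a term. Over both experiments all 4 falls passed with it, at -1.90 for Il6 (adjusted p = 0.000307), -1.02 for Il12b (0.000942), -0.89 for Ebi3 (0.00382) and -1.34 for Il10 (0.02). Between the experiments themselves, with the vector as a term, 0 of the 7 members passed by edgeR (adjusted p 0.27 to 0.963, none at an unadjusted p under 0.05), against 6.43% of all tested genes (3.57% higher and 2.86% lower in experiment 3).

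Which cytokine dominated was described by 13 log2 ratios of pairs, tested by a two-sided exact permutation test with the vector labels permuted within each experiment (400 splits, smallest p 0.005) and adjusted over the 13. These ratios use CPM not divided by exon length, which is 1967 bases for Il12b and 1310 for Il10. Length thus enters the level of a ratio but not its shift between vectors. Il12b stood above Il10, by a mean log2 ratio of 2.64 ± 0.85 in AdCL and 4.35 ± 0.716 in AdTGFb1 of experiment 1 (SD, n = 3 each). In experiment 3 the ratio was 4.11 ± 0.761 in AdCL and 3.74 ± 1.11 in AdTGFb1. It thus shifted by 1.71 towards Il12b in experiment 1 and by -0.37 in experiment 3, where the libraries overlapped, and over both by 0.671 (exact permutation p = 0.26, adjusted p = 0.448). Il6 to Il10 moved likewise, by 1.89 in experiment 1 and -1.33 in experiment 3 (over both 0.279, exact permutation p = 0.655, adjusted p = 0.71). The ratio of Il12b to Ebi3 shifted by 0.311 in experiment 1, by -0.342 in experiment 3 and by -0.0156 over both (exact permutation p = 0.955, adjusted p = 0.955).

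Il6 relative to its own receptor chain Il6ra, whose RNA held 119 ± 13.8 and 140 ± 30.4 CPM, dropped by 1.91 on the log2 scale (exact permutation p = 0.005, adjusted p = 0.0325). Relative to the mean of the mature DC markers, Il6 dropped by 0.648 (exact permutation p = 0.005, adjusted p = 0.0325), by 0.573 in experiment 1 and 0.724 in experiment 3. Il12b and Ebi3 against the same markers shifted by -0.256 and -0.24 (exact permutation p = 0.295 and 0.475). Il10 against them shifted by -2.46 in experiment 1 and 0.607 in experiment 3 (over both -0.928, exact permutation p = 0.165, adjusted p = 0.429). Il15 against them shifted by 1.73 (exact permutation p = 0.035, adjusted p = 0.114). Ebi3 to Il27 shifted by -4.14 (exact permutation p = 0.01, adjusted p = 0.0433), a size that depends on the prior count at Il27's zeros (-5.44 with a prior count of 0.5). Il27 reached the mean of 1 CPM asked of genes in ratios only through AdTGFb1 (0.394 CPM in AdCL), so this p is descriptive. The 3 ratios that passed were all at an adjusted p of 0.065 in this test without AdCL DC 7, DC 944 or DC 949. Il6 to Il6ra and Il6 to the mature DC markers passed without any other single library (0.0325 to 0.0433). Fewer splits exist whichever library is left out. Ebi3 to Il27 also missed the threshold without AdTGFb1 DC 954 or DC 956 (0.0867).

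**Figure D3:**
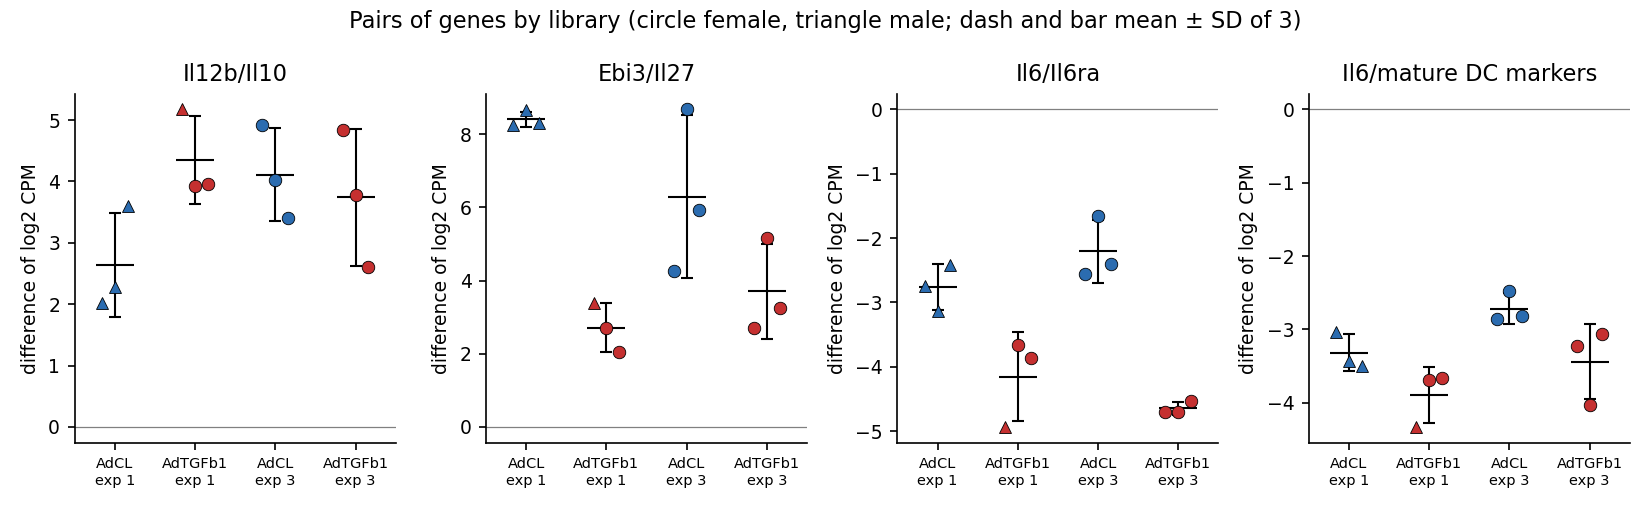
Difference of log2 CPM between the genes of a pair (y axis, own scale per panel) in every library, by vector and experiment (blue AdCL, red AdTGFb1; circles female, triangles male; dash and bar mean ± SD of 3). Il6 against Il6ra is lower in all AdTGFb1 libraries, and Il12b against Il10 is higher in AdTGFb1 in experiment 1 and overlaps in experiment 3.

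Of 12 genes for receptors of these cytokines 10 were tested over both experiments, and 1 fell and none rose (median log2 fold change -0.18), against 10.4% of all tested genes lower and 6.78% higher. Within experiment 1, 3 of 10 fell (Il6st, Il10ra and Il2rb) and none rose, against 14.1% and 10.6% of all tested genes. Within experiment 3, 0 of 10 passed by edgeR (3 at an unadjusted p under 0.05) and 1, Il6ra, by DESeq2, while 2 (Il10ra and Il2rb) had a positive difference between experiments, against 3.43% of all tested genes. The receptor that fell over both experiments was Il27ra, the specific chain of the IL-27 receptor, at 5.9 ± 2.36 CPM in AdCL and 2.06 ± 0.72 CPM in AdTGFb1 (-1.51 ± 0.513, adjusted p = 0.0494). That call was lost without any one library other than AdCL DC 7 or AdTGFb1 DC 14 (adjusted p = 0.0646 to 0.142). Il6st, the gp130 chain shared by the IL-6 and IL-27 receptors, held 158 ± 26 and 122 ± 15 CPM (-0.36 ± 0.132, adjusted p = 0.0668), and passed with DESeq2 (0.0478) and without AdCL DC 949 (0.0348). Il6st fell by 0.65 in experiment 1 (SE 0.157, adjusted p = 0.00406), with 3 of 3 AdTGFb1 libraries under every AdCL library, a call lost with the structural marker score (adjusted p = 0.484). In experiment 3 it was at -0.08 ± 0.157 (adjusted p = 0.867), and the difference between experiments did not pass (0.57 ± 0.222, adjusted p = 0.138). Il2rb, the β chain of the IL-15 and IL-2 receptors, singled out after its values were seen, held 6.57 to 26.7 CPM in AdCL and 0.55 to 1.15 CPM in AdTGFb1 of experiment 1 (-3.88 ± 0.816, adjusted p = 0.00119). In experiment 3 it was at 0.68 (adjusted p = 0.711), a difference of 4.56 ± 1.09 (adjusted p = 0.0131) that was lost without AdCL DC 7 (3.65, adjusted p = 0.124). The fall and the difference of Il2rb were lost once sex entered the fit (adjusted p = 0.0923 and 0.191) and with the structural marker score (0.196 and 0.46). Il10ra, the IL-10 binding chain, also chosen after its values were seen, fell by 0.67 on the log2 scale in experiment 1 (SE 0.166, adjusted p = 0.00494) and was at 0.38 ± 0.165 in experiment 3 (adjusted p = 0.217), a difference between experiments of 1.04 ± 0.235 (adjusted p = 0.0089). The fall and that difference did not pass once sex entered the fit (adjusted p = 0.411 and 0.227) and with the structural marker score (0.508 and 0.551).

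Among 17 JAK, STAT and SOCS genes, which carry the signal from these receptors, 7 fell and 3 rose (median log2 fold change -0.32), against 10.4% of all tested genes lower and 6.78% higher. Stat5a, a transducer of IL-15 and GM-CSF signals, fell from 445 ± 128 to 110 ± 15.7 CPM (-1.98 ± 0.163, adjusted p = 6.72e-07), with 1.01% of its exon bases shared with Stat3 on the opposite strand. Stat4, the main transducer of IL-12, fell by 1.69 (SE 0.168, adjusted p = 2.81e-06), with 26.7% of its exon bases shared with Gm28177. Jak2, a kinase of the IL-12 and IL-23 receptors, fell by 1.17 (SE 0.104, adjusted p = 1.04e-06). Ptpn6, the phosphatase SHP-1, rose by 0.91 (SE 0.108, adjusted p = 1.35e-05).

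Among 28 transcription factors known for cytokine genes and DC identity, 11 fell and 5 rose (median -0.0758; 10.4% and 6.78% of all tested genes). Rel, an NF-κB subunit that activates Il12b, fell from 1100 ± 189 to 489 ± 38.8 CPM (-1.17 ± 0.119, adjusted p = 3.49e-06). Ahr, the aryl hydrocarbon receptor, fell by 1.19 (SE 0.122, adjusted p = 3.92e-06), and Irf4, a factor of CD11b DCs, by 1.36 (SE 0.161, adjusted p = 1.36e-05). Irf8, a factor that can activate Il12b, rose from 119 ± 24.5 to 267 ± 58.3 CPM (1.16 ± 0.119, adjusted p = 4.03e-06), with 6 of 6 AdTGFb1 libraries above every AdCL library.

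Of 12 genes for mRNA stability, 3 fell and 1 rose (median -0.259; 10.4% and 6.78% of all tested genes). Zfp36l2, which speeds the decay of AU-rich mRNAs, rose from 236 ± 48.6 to 513 ± 56.3 CPM (1.12 ± 0.127, adjusted p = 8.59e-06). Zc3h12c, of the regnase family, fell by 1.45 (SE 0.178, adjusted p = 1.87e-05). Arid5a, which protects Il6 mRNA, and Zc3h12a, the regnase-1 that cleaves it, fell by 0.57 (adjusted p = 0.016) and 0.42 (adjusted p = 0.0257). Neither passed once sex entered the fit (adjusted p = 0.0974 and 0.0761), and that of Zc3h12a without AdCL DC 7, 8, 944 or 949 or AdTGFb1 DC 14, 54 or 954 (0.0588 to 0.0738).

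Of 29 other cytokine genes 14 were tested, and 2 fell and 2 rose (median -0.308), against 10.4% and 6.78% of all tested genes. Il1a fell by 1.01 (SE 0.206, adjusted p = 0.00219), and Il1b by 0.92 (SE 0.263, adjusted p = 0.0198), a call lost without AdCL DC 944 (-0.75, adjusted p = 0.0632). Tgfb3, a TGF-β ligand, rose from 17.8 ± 14.7 to 42.4 ± 24.6 CPM (1.30 ± 0.279, adjusted p = 0.00314). Osm, an IL-6 family ligand, rose by 0.86 over both experiments (SE 0.284, adjusted p = 0.0434), a call lost without any one library of experiment 1 (0.0651 to 0.127). Osm rose by 1.80 in experiment 1 (adjusted p = 3.59e-06) and was at -0.06 in experiment 3 (adjusted p = 0.93), a difference of -1.86 ± 0.308 (adjusted p = 0.000788). Tnf held 236 ± 72.2 and 161 ± 50.4 CPM (-0.60 ± 0.213, adjusted p = 0.0603) and passed with DESeq2 (0.0237) and without AdCL DC 943 (0.000421) or AdTGFb1 DC 955 (0.0342). Tnf fell by 1.03 in experiment 1 (SE 0.247, adjusted p = 0.00375), with 3 of 3 AdTGFb1 libraries under every AdCL library, a call lost once sex entered the fit (adjusted p = 0.202) and with the structural marker score (0.917). In experiment 3 Tnf was at -0.17 ± 0.244 (adjusted p = 0.787). The difference for Tnf between experiments did not pass (0.85 ± 0.346, adjusted p = 0.153), but did with no low-count filter (adjusted p = 0.00635) and without AdCL DC 944 (1.17, adjusted p = 0.0236). Endogenous Tgfb1 held 312 ± 57.9 and 266 ± 30.6 CPM (-0.22 ± 0.128, adjusted p = 0.266), and Ifng was under the filter.

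Of 14 STAT3 target genes, which IL-6 and IL-10 induce, 7 fell and 1 rose (median -0.396), against 10.4% of all tested genes lower and 6.78% higher. Etv3, a repressor induced by IL-10, fell from 2580 ± 662 to 722 ± 124 CPM (-1.83 ± 0.17, adjusted p = 1.61e-06), and Tnfaip3, the NF-κB inhibitor A20, by 1.00 (SE 0.151, adjusted p = 0.000133). Sbno2 fell by 0.62 (SE 0.111, adjusted p = 0.000684) and Fos rose by 0.58 (SE 0.109, adjusted p = 0.00106). Of 13 contact ligands, the membrane partners that act on the T cell beside cytokines, 7 fell and none rose (median -1.01), against the same shares of all tested genes. Cd80 fell by 1.61 (SE 0.173, adjusted p = 5.22e-06), Cd86 by 1.01 (SE 0.139, adjusted p = 6.36e-05), Tnfsf9 by 1.22 (SE 0.219, adjusted p = 0.000716) and Tnfsf4, the ligand OX40L, by 2.10 (SE 0.38, adjusted p = 0.000789). Of the list genes named, Tnfsf9 (14.9% of exon bases), Il1a (11.2%), Tgfb3 (7.6% and 4.82%), Ptpn6 (6.96%), Zfp36l2 (2.97%), Ahr (2.06%), Zc3h12c (1.71%) and Il1b (1.31%) overlap an annotated gene on the opposite strand, so their counts may hold its reads.

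**Figure D4:**
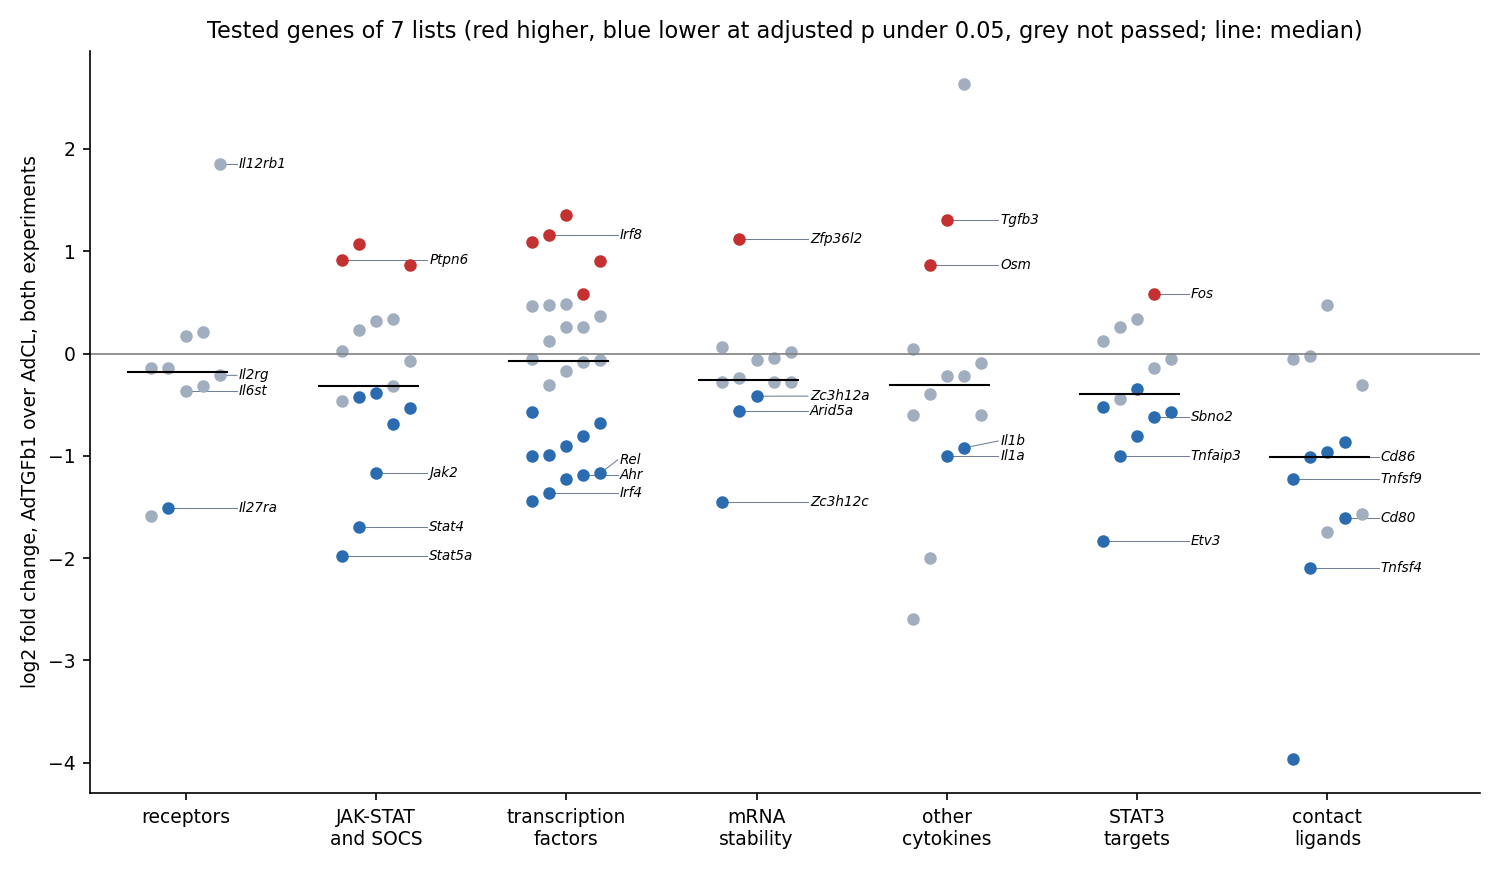
Log2 fold change of AdTGFb1 over AdCL over both experiments (y axis) for every tested gene of 7 lists (x axis; points spread sideways for legibility); red rose and blue fell at an adjusted p under 0.05, grey did not pass, and a line marks each list's median. The contact ligands have the lowest median, at -1.01, and 1 of 10 receptors was called, against 17.2% of all tested genes.

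Genes whose log2 CPM followed a member most closely over the 12 libraries were listed among the 9458 or 9459 genes that reached 5 CPM on average, as a description with no p, since the libraries share vector, experiment and depth. Il6 ran with Lrrc32 (Pearson r = 0.963), Pik3r5 (0.956) and Sec24b (0.951). Il12b ran with Cxcr5 (0.964), Zfp366 (0.954) and Tnfrsf1b (0.952), and Ebi3 with Sp110 (0.976), Gimap4 (0.972) and Swap70 (0.972). Il10 ran with Mtmr12 (0.947), Nlrp3 (0.944) and Tnip1 (0.939), for which r was 0.968, 0.987 and 0.982 within experiment 1 and 0.874, 0.699 and 0.724 within experiment 3. Il27 ran with Gpnmb (0.971), Slamf6 (0.964) and Cpped1 (0.945), Il23a with Kif1a (0.936) and Il15 with Arg2 (0.91). On deviations from the 4 group means, which leave out vector and experiment, Sec24b stayed in the top 3 for Il6 (0.888), Kif1a for Il23a (0.914), Slamf6 for Il27 (0.964) and Tspan31 and Arg2 for Il15 (0.947 and 0.925). Tspan31 shares 29.2% and Arg2 20% of exon bases with Cdk4 and Vti1b on the opposite strand. For Il12b, Ebi3 and Il10 none of the 3 genes nearest in level was among the 3 nearest in deviations.

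Single libraries also set the members apart. AdCL DC 944 was the highest of the 12 in 5 of 8 members (Il6, Il12a, Il12b, Il23a and Ebi3). AdCL DC 7 was the highest for Il10, AdCL DC 943 for Il15 and AdTGFb1 DC 954 for Il27. Without AdCL DC 944, Il6, Il12b, Ebi3 and Il10 still passed over both experiments.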

How the data were processed

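The 12 RNA-seq libraries were made, per the labels' protocols, from poly(A) RNA with a directional kit. The deposited table holds raw read counts per gene symbol, 1 column per library, and the authors' steps are known only from the submitters' processing notes, which list STAR 2.5.0c and HTSeq, the trimming tools cutadapt 1.9.1 and Trim Galore 0.4.1, FastQC 0.11.4, bcl2fastq, DESeq2 and the build mm9, without saying what each did. How strand was handled and which annotation was used in counting is not given in the sources used here.

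Counts were tested with edgeR 4.0.16 in R 4.3.3 (TMM, filterByExpr over the 4 combinations of vector and experiment, quasi-likelihood F test, two-sided, Benjamini-Hochberg over 13221 genes, threshold 0.05), with the experiment as an additive term, and in a 4-group model for effects within experiments and their difference. The SE restates the test as the effect over the square root of F. Log2 CPM used a prior count of 2. The totals of 10099912 to 15594546 counts set floors of 3 counts at 0.181 to 0.31 CPM, which cover counting error only since amplified reads lacking molecular identifiers are not independent. DESeq2 1.42.0, RLE size factors, other filters, library sizes without Rn45s and Malat1, terms for sex and structural markers, no term for the experiment, each experiment's libraries alone, another prior count for the ratios and leaving out each library were tried. Ratios with a gene under 1 CPM on average were left out.

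All 8 members are named, and of 7 lists up to 4 genes with the smallest adjusted p over both experiments and at least 1 CPM, the 3 genes of at least 5 CPM nearest to each member, and 14 fixed genes, not all of which are printed. The members and lists were chosen with earlier results of these data known. Exon length and overlap came from the M21 annotation, of another build, with no coordinates taken from it, and 3 fixed markers (Siglec5, Igj and Ly6g) matched no row.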

Additional observations from a re-analysis of the deposited data

Results flagged for a closer look

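Among the 6 libraries of a vector, 1 library stood far from the others, by a gap above the 95% critical value of Dixon's test, in 4 member and vector combinations. All 8 members were examined in each vector, with both experiments together. The critical value marks about 1 in 20 groups only for normally distributed values. It gives no chance rate for groups that are mostly zeros, as for Il12a and Il27 here. For Il6, AdCL DC 944 held 36.6 CPM and the next AdCL library 20.9 CPM. For Il23a the same library held 9.53 CPM and the next 3.72 CPM. For Il27, AdCL DC 943 held 1.83 CPM, the next AdCL library 0.536 CPM and the other 4 none. For Il12a, AdTGFb1 DC 52 held 0.143 CPM and the other AdTGFb1 libraries none, a value of 2 counts.

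The effect of the vector differed between the experiments, by the interaction term of edgeR's 4-group model, for 2 of 7 tested members, against 6.02% of all tested genes. The difference, experiment 3 minus experiment 1, was 2.78 for Il10 (adjusted p = 0.00741), which fell in experiment 1 with 3 of 3 AdTGFb1 libraries under every AdCL library and overlapped in experiment 3. It was 1.27 for Ebi3 (adjusted p = 0.0322), whose AdTGFb1 libraries lay under all AdCL libraries of their own experiment in both. The call held in 18 of 19 alternatives for Il10 and in 11 of 19 for Ebi3, and neither passed with the structural marker term.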

How the results depend on the processing

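No paired analysis was possible because the groups compared share no replicate numbers. Over both experiments Il6, Il12b and Ebi3 passed in 20 of 20 alternatives and Il10 in 19 of 20 (term for sex, log2 fold change -1.41), while Il23a and Il15 passed in none. Il27 passed with DESeq2 (3.85), which makes 1 member higher, and without AdCL DC 943 (4.76), its range without single libraries being 3.18 to 4.76. Without single libraries, members higher over both experiments numbered 0 to 1, members higher in experiment 1 0 to 1, members lower in experiment 3 1 to 2, members with a positive interaction 1 to 3 and ratios past the threshold 0 to 4. Members lower in experiment 3 numbered 1 with DESeq2 and with only that experiment's libraries. With the term for sex no member was higher in experiment 1 (0) and 1 had a positive interaction. With the structural marker term, 0 members were higher and 0 lower in experiment 1, 0 had a positive interaction and 1 was higher in experiment 3 than in experiment 1. Over all genes, with no low-count filter 392 rose in experiment 3 (261 in the fit as reported) and 715 had a positive interaction (453). With DESeq2 these were 423 and 780, and 641 were lower in experiment 3 than in experiment 1 (378). With the term for sex 582 rose over both (897), 540 rose and 756 fell in experiment 1 (1397 and 1867), the interaction called 87 and 70 (453 and 343) and 189 were lower in experiment 3 than 1. With the structural marker term 531 rose over both, 20 rose and 48 fell in experiment 1, the interaction called 1 and 4, and experiment 3 against 1 called 740 and 614 (472 and 378). Without single libraries, genes ranged from 149 to 244 (rose) and 349 to 596 (fell) in experiment 3, 274 to 541 and 212 to 415 for the interaction, and 227 to 358 for lower in experiment 3 than 1. Direction turned, at values past no threshold, for Il15 in experiment 3 (-0.008 as reported; 0.0104 with RLE, 0.00803 with the stricter filter, 0.00883 with DESeq2, 0.00841 without Rn45s and Malat1, 0.0107 with that experiment alone, -0.83 to 0.93 without single libraries). With the term for sex the interaction turned for Il6 (0.0176) and Il23a (0.62), and experiment 3 against 1 for Il6 (-0.252), Il23a (-0.162) and Il10 (0.776). Il10ra over both turned with that term (0.168) and with the structural marker term (0.127). With the latter, Il27 turned in experiment 1 (-0.296), the interaction turned for Il12b (-0.207), Il23a (0.18), Il27 (4.33) and Tnf (-0.117), and Il10 turned in experiment 3 against 1 (0.0375). Other turns came from leaving out single libraries, with ranges of -1.2 to 0.677 for the interaction of Il23a, -0.0534 to 0.854 (Il23a), -0.391 to 0.309 (Il10) and -0.282 to 0.37 (Il15) for experiment 3 against 1, -0.293 to 0.165 for Osm, -0.17 to 0.0834 for Il6st, -0.00334 to 1.06 for Il2rb and -0.51 to 0.182 for Tnf in experiment 3, and -0.162 to 0.123 and -0.151 to 0.733 for the ratios of Il12b to Ebi3 and to Il23a. The cause was not tested, except that the structural marker score parts the vectors of experiment 1 without overlap. Depth limits Il12a, Il27 and Il23a most, with 29, 27 and 266 counts over the 6 AdCL libraries.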
